A study of Bos taurus with 10 samples.

Results

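COL1A1, COL1A2, COL3A1 and SPARC are genes of the collagenous matrix between muscle fibres, and their transcripts were followed here in the longissimus muscle, the long back muscle, of 10 steers. The members were 4 rows of the deposited gene count table, chosen by Ensembl identifier: ENSBTAG00000013103 (COL1A1), ENSBTAG00000013472 (COL1A2), ENSBTAG00000021466 (COL3A1) and ENSBTAG00000014835 (SPARC). The table held 16963 rows. The filter on low counts left 12295 genes, all 4 members among them. The names came with the choice of identifiers. They were not checked against an annotation of the counted assembly, UMD3.1. In the RefSeq table of another assembly, ARS-UCD2.0, the 4 symbols lie on 4 different chromosomes, so none neighbours another there.

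All animals were male steers of an Angus x Simmental cross, 385 ± 5 days old. The 5 animals of the DDGS group were born to cows that received dried distillers grains and solubles while lactating. The 5 of the SBM group were born to cows on the control diet, labelled SBM. The diet was thus given to the dams, and no label gives what the steers themselves ate, their sires or a batch. Each library was total RNA of whole muscle of 1 animal, so fewer matrix-forming cells and less RNA per cell cannot be told apart. The muscle label was not checked against marker genes, since only these 4 identifiers were paired with names.

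Fibrillar collagens are rods of 3 chains wound together, secreted as procollagen mainly by fibroblasts and cut and assembled into fibrils outside the cell. Type I collagen, built from the products of COL1A1 and COL1A2, forms the thick load-bearing fibres of muscle connective tissue. Type III collagen, built from COL3A1 chains alone, forms finer networks and joins type I in mixed fibrils. SPARC (osteonectin) is a secreted, collagen-binding glycoprotein of the matricellular class that takes part in fibril assembly and is made by several cell types. In meat animals the amount and maturity of this matrix bear on the background toughness of a cut.

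Library totals ranged from 16942156 to 24936741 counts, and the most abundant pair of rows took 48.9% to 54.1% of a library. The 4 genes together held 0.0522% to 0.276% of the counts. Their lowest single count was 913, of COL1A1, for which counting alone gives a coefficient of variation of 3.31%. This figure covers counting error only. Levels are given as CPM, counts relative to the library total, on library sizes normalised by TMM, a scaling that evens out differences in composition. CPM is not divided by transcript length, so levels of different genes are not ranked against each other. DDGS replicate 3 had the most rows at the table's lowest value, 1, with 5078. SBM replicate 4 followed with 4699, and the others had 2524 to 4353. SBM replicate 4 also had the largest share in the most abundant pair of rows, 54.1%. Results that DDGS replicate 3 or another single library decides are given with and without it.

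COL1A1, the gene of the alpha 1 chain of type I collagen, spanned a 9.08-fold range over the 10 animals. In the DDGS group it stood at 149, 57.7, 62.1, 101 and 141 CPM in replicates 1 to 5. In the SBM group it stood at 98.2, 112, 190, 523 and 388 CPM. SBM replicates 4 and 5 lay far above all other animals, SBM replicate 3 was next, and SBM replicates 1 and 2 lay inside the DDGS range.

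COL1A2, which encodes the alpha 2 chain of the same protein, showed the same order at the top. Its level was 175, 113, 99.4, 128 and 196 CPM in DDGS replicates 1 to 5. It was 130, 135, 246, 716 and 419 CPM in SBM replicates 1 to 5. SBM replicates 3, 4 and 5 exceeded every DDGS animal and the remaining SBM pair did not. The highest animal was 7.21 times the lowest.

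COL3A1, the single chain gene of type III collagen, varied less, with a 3.96-fold range. DDGS replicates 1 to 5 had 733, 480, 278, 426 and 731 CPM. SBM replicates 1 to 5 had 461, 460, 567, 1101 and 917 CPM. SBM replicates 4 and 5 were again highest and DDGS replicate 3 lowest, but DDGS replicates 1 and 5 exceeded the other 3 SBM animals.

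SPARC was the steadiest of the members. It was measured at 520, 431, 179, 534 and 517 CPM in DDGS replicates 1 to 5 and at 379, 430, 358, 556 and 602 CPM in SBM replicates 1 to 5. The groups overlapped almost fully. The whole range was 3.37-fold, and 1.68-fold without DDGS replicate 3, whose value lay well below the rest. Among the DDGS animals alone, SPARC had the largest standard deviation of log2 CPM of the members, 0.67, with DDGS replicate 3 included. The other DDGS animals stood at 431 to 534 CPM.

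**Figure D1:**
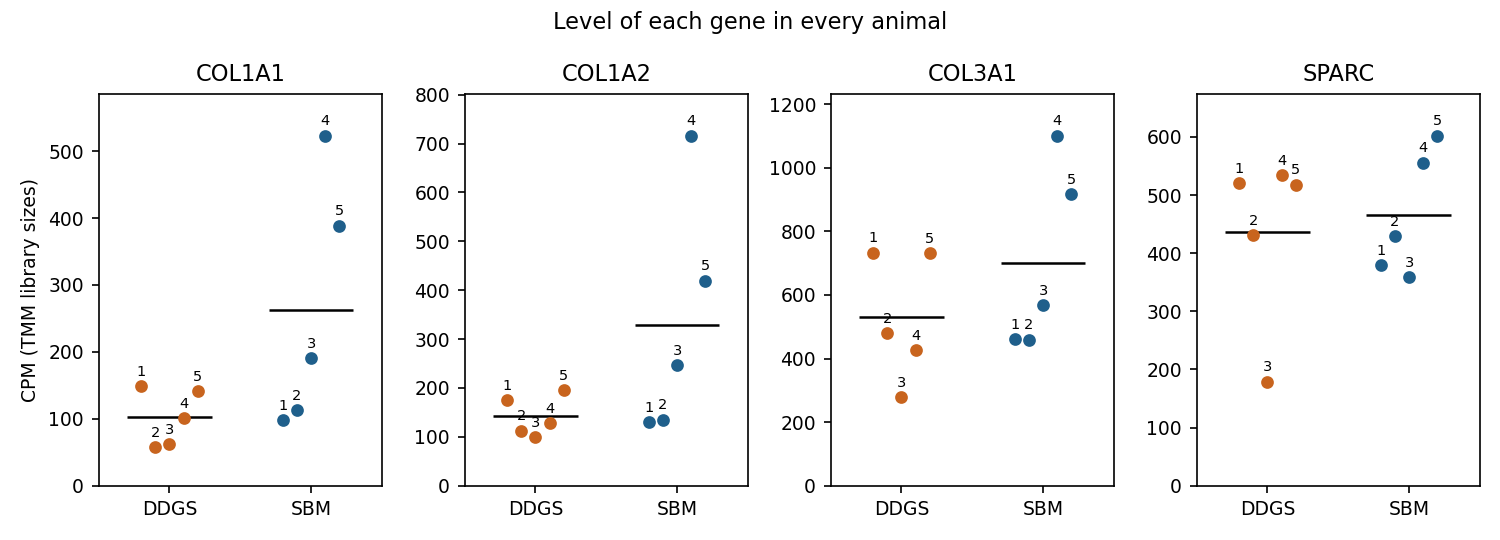
Level of each gene in every animal, in CPM on TMM library sizes (vertical axes start at 0 and differ between panels). Points are animals marked with their replicate number and bars are group means. SBM replicates 4 and 5 stand above all others for the 3 collagen genes, and DDGS replicate 3 is lowest for COL1A2, COL3A1 and SPARC.

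The spread of the collagen genes between animals was large for genes of this abundance. Among the 449 genes that averaged 100 CPM or more, the median standard deviation of log2 CPM over the 10 libraries was 0.27. COL1A1 had 1.03 and ranked 12th of the 449, counted from the most variable. COL1A2 had 0.91 and ranked 15th, COL3A1 had 0.59 and ranked 32nd, and SPARC had 0.51 and ranked 40th. The SPARC value depends on DDGS replicate 3, without which its range was 1.68-fold instead of 3.37-fold. Its rank without that library was not determined. Over all 12295 genes tested, many of them with few counts, the 4 were less unusual. There 73.4% of genes had a smaller standard deviation than COL1A1 and 43.9% a smaller one than SPARC.

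The comparison of the maternal diets addresses whether what a cow ate while nursing left a difference in the muscle RNA of her grown son. The means of both type I collagen genes were lower in the DDGS group, that of COL3A1 was 0.756 times as high by the fit, and that of SPARC 0.938 times. None of the 4 differences passed the test adjusted over all genes. COL1A1 averaged 102 ± 43 CPM in DDGS and 263 ± 186 CPM in SBM animals (SD, n = 5 each), and COL1A2 averaged 142 ± 41 and 329 ± 246 CPM. For COL3A1 the means were 530 ± 199 and 701 ± 292 CPM, and for SPARC 436 ± 150 and 465 ± 109 CPM (SD, n = 5 each).

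Differences are given as log2 fold changes of DDGS over SBM from edgeR's quasi-likelihood test, with unadjusted 95% intervals. COL1A1 had a value of -1.36 ± 0.55 (standard error; adjusted p = 0.996 in edgeR). Its interval of -2.62 to -0.11 corresponds to 0.163 to 0.929 times the SBM level. COL1A2 had -1.21 ± 0.51 and an interval of -2.37 to -0.056 (edgeR adjusted p = 0.996). Both type I genes thus lay at an unadjusted edgeR p under 0.05, at 0.0367 and 0.0418. COL3A1 had -0.40 with an interval of -1.10 to 0.29, and SPARC had -0.092 with an interval of -0.63 to 0.45. For SPARC, differences between 0.645 and 1.37 times the SBM level lie inside the interval. The data do not show that it was equal in both groups.

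Over all 12295 genes edgeR called 0 at an adjusted p under 0.05, which is 0%, and DESeq2 called 15 of 14085, which is 0.106%. At an unadjusted p under 0.05 edgeR had 460 genes, 3.74% of those tested, of which 285 were lower in DDGS, 2.32% of those tested. COL1A1 and COL1A2 were 2 of these 285, and since their levels moved together across animals they are not separate observations. Within the 449 genes of at least 100 CPM, COL1A1 had the lowest fitted log2 fold change and COL1A2 the next lowest, where the median gene stood at 0.10. In limma voom, which gives libraries different weights, they ranked 5th and 12th, and without SBM replicate 4 they ranked 2nd and 4th.

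The size of the type I difference rested partly on SBM replicate 4. Without it the log2 fold change of COL1A2 was -0.71 and that of COL1A1 -0.95. In limma voom the values were -0.48 for COL1A2 and -0.65 for COL1A1. COL3A1 was then at -0.030, against -0.18 without SBM replicate 4. SPARC had no stable direction: it stood at 0.11 without DDGS replicate 3, at 0.0083 without SBM replicate 5 and at 0.083 in limma voom.

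**Figure D2:**
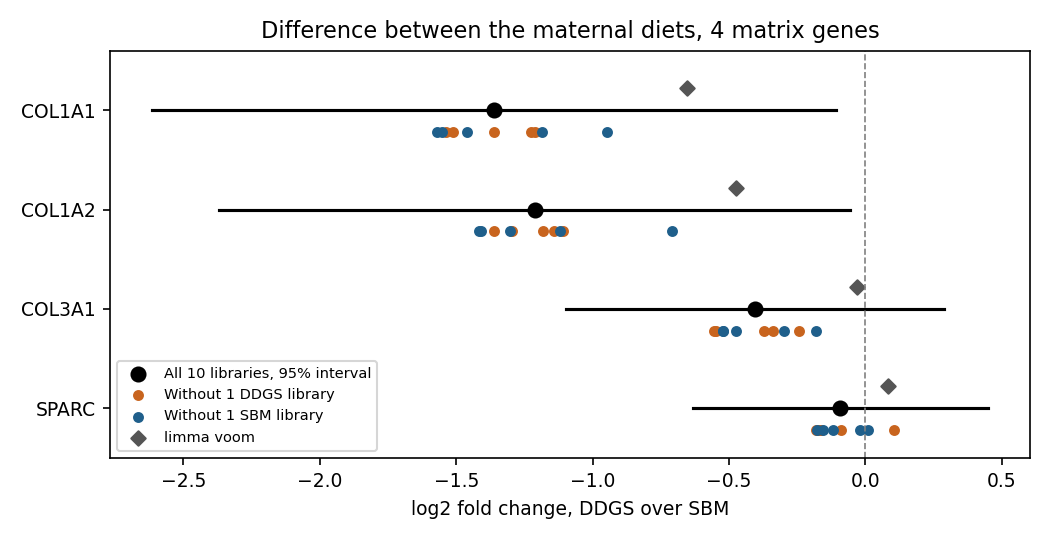
Log2 fold change of DDGS over SBM for the 4 genes (horizontal axis; 0 means equal levels). Black points and lines are edgeR estimates from all 10 libraries with unadjusted 95% intervals, coloured points leave out 1 library each, and diamonds are limma voom estimates. The intervals of COL1A1 and COL1A2 end below 0, those of COL3A1 and SPARC include it, and the limma voom values lie nearer to 0 or, for SPARC, above it.

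How the genes moved together across the 10 animals was measured on log2 CPM, with p-values from 100000 permutations, adjusted over 6 pairs by the Benjamini-Hochberg method. The chains of type I collagen tracked each other most closely. COL1A1 and COL1A2 had Pearson r = 0.98 (permutation p = 2e-05, adjusted p = 0.00012) and Spearman rho = 0.96 (permutation p = 5e-05, adjusted p = 0.0003). Of all 12294 other genes, COL1A2 was the one with the highest correlation with COL1A1, and COL1A1 ranked second for COL1A2. The correlation held without the animals farthest from the median, SBM replicates 4 and 5, at r = 0.93 (permutation p = 0.00105, adjusted p = 0.0063).

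COL3A1 also moved with the type I genes. Its correlation with COL1A1 was r = 0.88 (permutation p = 0.0006, adjusted p = 0.0012; rho = 0.81, permutation p = 0.0073, adjusted p = 0.0146). With COL1A2 it was r = 0.89 (permutation p = 0.00015, adjusted p = 0.00045; rho = 0.87, permutation p = 0.00197, adjusted p = 0.00591). COL3A1 ranked 15th among the genes most like COL1A1 and 12th among those most like COL1A2. Without SBM replicates 4 and 5 the values were r = 0.72 (permutation p = 0.0401, adjusted p = 0.0803) and r = 0.78 (permutation p = 0.0231, adjusted p = 0.0693). Their adjusted tests thus rest on those animals.

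For SPARC only the correlation with COL3A1 passed the adjusted test. It was r = 0.78 (permutation p = 0.00424, adjusted p = 0.00636; rho = 0.65, permutation p = 0.0486, adjusted p = 0.0729). SPARC ranked 171st among the genes most like COL3A1, and COL3A1 ranked 437th among those most like SPARC. For COL1A1 and COL1A2, SPARC ranked 979th and 1175th. Without DDGS replicate 3 and SBM replicate 4, the animals farthest from the COL3A1 median, r of COL3A1 and SPARC was 0.59 (permutation p = 0.126, adjusted p = 0.189). Leaving out DDGS replicate 3 alone gave r = 0.64 (permutation, adjusted p = 0.101). Leaving out SBM replicate 4 alone gave r = 0.80 (permutation, adjusted p = 0.013). The adjusted test of this pair thus rests on DDGS replicate 3. With COL1A1 the correlation was r = 0.58 (permutation p = 0.0794, adjusted p = 0.0952; rho = 0.56, permutation p = 0.0956, adjusted p = 0.114) and with COL1A2 r = 0.54 (permutation p = 0.113, adjusted p = 0.113; rho = 0.54, permutation p = 0.114, adjusted p = 0.114). Without SBM replicates 4 and 5 these fell to 0.46 and 0.42 (permutation p = 0.27 and 0.31, adjusted p = 0.31 for both).

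The relations had similar values within the groups. With each group's mean removed, r was 0.97 for COL1A1 with COL1A2, 0.89 for either type I gene with COL3A1 and 0.79 for COL3A1 with SPARC. It was 0.61 and 0.54 for SPARC with COL1A1 and COL1A2. For comparison, the median correlation of any other gene with a member was between -0.015 and -0.011. A correlation of at least 0.9 was reached by 6 other genes for COL1A1, 8 for COL1A2, 13 for COL3A1 and 77 for SPARC.

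**Figure D3:**
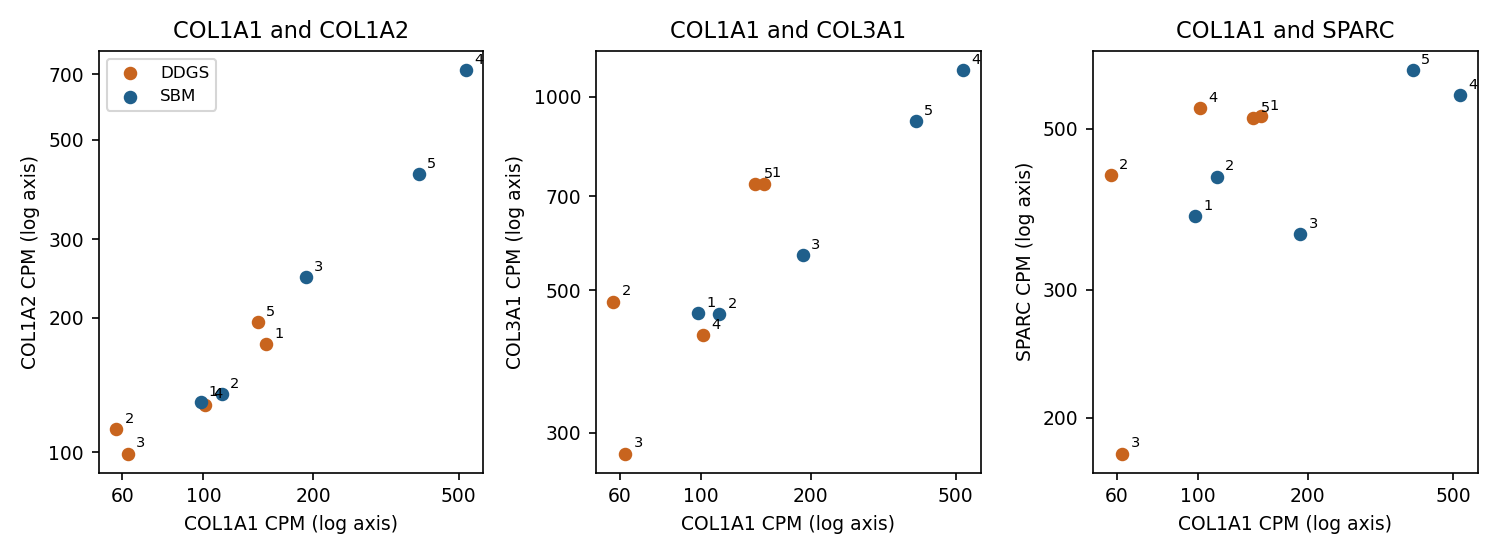
COL1A1 against COL1A2, COL3A1 and SPARC in the 10 animals (CPM on TMM library sizes, log axes; points are animals marked with their replicate number). COL1A2 lies along a line with COL1A1 (r = 0.98), COL3A1 scatters more (r = 0.88), and SPARC spans 1.68-fold apart from DDGS replicate 3 (r = 0.58 over all 10).

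No relation of the 4 genes to library measures passed the test. The library total, the share of the most abundant pair of rows and the number of rows listed at 1 gave Pearson r between -0.40 and 0.31 over 12 relations (smallest permutation p = 0.258, adjusted p = 0.968). Spearman's rho was between -0.16 and 0.43 (smallest permutation p = 0.217, adjusted p = 1.0). The lowest r, -0.40 of SPARC with the number of rows listed at 1, was 0.14 once the animals most distant from the median of that measure, DDGS replicate 3 and SBM replicate 4, were left out.

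The genes whose pattern was most like that of all 4 members were sought by the mean of their Pearson correlations with the members over the 10 animals. ENSBTAG00000012994 came first, at a mean r of 0.87, with 0.88, 0.90, 0.94 and 0.77 for COL1A1, COL1A2, COL3A1 and SPARC. It stood at 0.816 to 5.75 CPM in DDGS and 2.02 to 17.2 CPM in SBM animals, highest in SBM replicate 4 and lowest in DDGS replicate 3. ENSBTAG00000004411 came second at 0.86 and was closest to COL3A1, at 0.98. Its level was 0.068 to 2.35 CPM in DDGS and 0.403 to 5.41 CPM in SBM animals. In DDGS replicate 3 it was listed at 1 count. Neither passed edgeR's adjusted test between the diets (adjusted p = 0.996 for both, log2 fold changes of -1.08 and -0.86), which does not show equal levels.

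Ratios between the genes within a library do not depend on how the libraries were scaled. They are ratios of read counts, not of molecules, because longer transcripts give more reads. Only their change from animal to animal is read here. The ratio of the type I chains was the most even. COL1A1 over COL1A2 was 0.851, 0.511, 0.624, 0.791 and 0.721 in DDGS replicates 1 to 5 and 0.757, 0.832, 0.773, 0.731 and 0.926 in SBM replicates 1 to 5. The highest animal was 1.81 times the lowest, although the COL1A1 level itself spanned 9.08-fold. DDGS replicates 2 and 3, the animals with the least COL1A1, had the lowest ratios. COL1A1 is the numerator of this ratio, so its level and the ratio are not separate measures. For DDGS replicate 2 the exact 95% interval from counting alone was 0.475 to 0.550, and for SBM replicate 5 it was 0.897 to 0.956, so these libraries differed by more than counting error.

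The ratio of COL1A1 to COL3A1, of type I to type III chains, had the smallest unadjusted permutation p between the groups. It was 0.203, 0.120, 0.223, 0.238 and 0.193 in DDGS replicates 1 to 5. In SBM replicates 1 to 5 it was 0.213, 0.245, 0.336, 0.475 and 0.424. All SBM animals but replicate 1 lay above the highest DDGS animal, and 3 DDGS animals lay below the lowest SBM animal. The group means were 0.195 ± 0.046 and 0.338 ± 0.112 (SD, n = 5 each), a log2 difference of -0.76 with an exact permutation interval of -1.45 to -0.074. The exact two-sided permutation p was 0.0317, and 0.131 after adjustment over 6 ratios, which does not pass 0.05. The smallest p that 5 against 5 animals allow is 0.00794.

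For the other 5 ratios no difference between the diets reached an unadjusted p of 0.05. COL1A2 over COL3A1 averaged 0.280 ± 0.051 in DDGS and 0.423 ± 0.150 in SBM animals (SD, n = 5 each). Its p was 0.0714 by the exact two-sided permutation test, or 0.131 adjusted. COL1A1 over SPARC was the most variable ratio, with a 7.04-fold range. It averaged 0.246 ± 0.084 and 0.528 ± 0.286 (exact permutation p = 0.0794, adjusted p = 0.131, n = 5 each), and SBM replicate 4 stood at 0.941 against 0.134 in DDGS replicate 2. For COL1A2 over SPARC the means were 0.354 ± 0.126 and 0.666 ± 0.393 (exact permutation p = 0.0873, adjusted p = 0.131, n = 5 each). COL1A1 over COL1A2 had a log2 difference of -0.22 with an interval of -0.57 to 0.11 (exact permutation p = 0.183, adjusted p = 0.219). COL3A1 over SPARC had -0.23 with an interval of -0.83 to 0.36 (exact permutation p = 0.341, adjusted p = 0.341). All 6 ratios were lower on average in DDGS. They are made from 4 genes and are not separate observations.

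**Figure D4:**
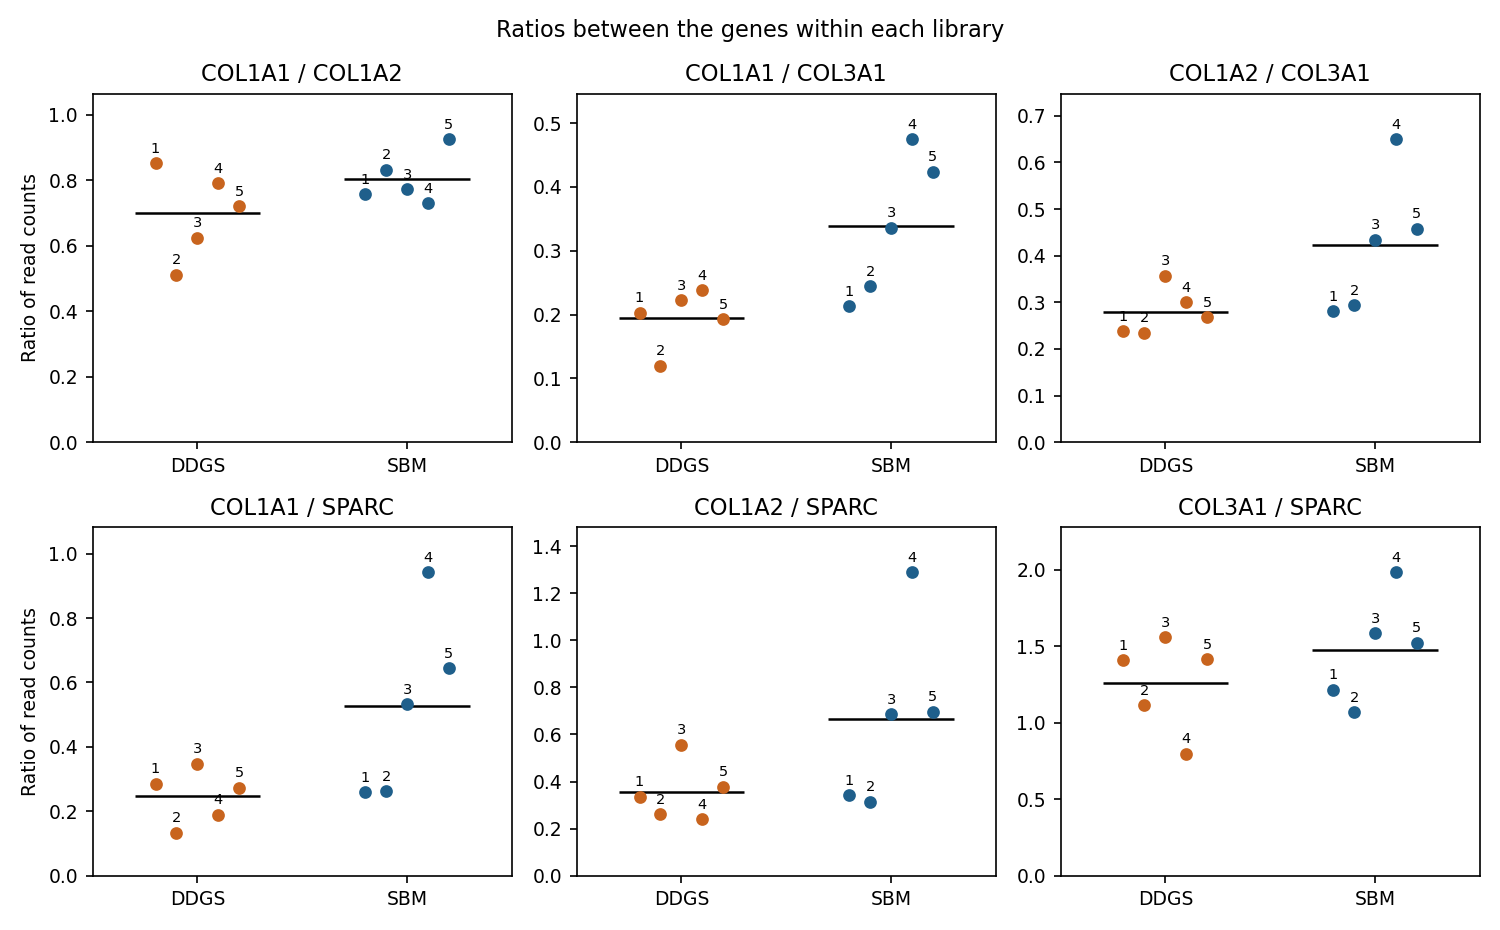
Ratios of read counts between the 4 genes within each library (vertical axes start at 0 and differ between panels; points are animals marked with their replicate number and bars are group means). SBM replicates 3, 4 and 5 are the highest animals in the ratios of either type I gene to COL3A1 or SPARC, while COL1A1 over COL1A2 stays between 0.511 and 0.926.

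The same test was run for the ratio of every other gene to a member as background. Against COL3A1, 296 of 12294 genes, 2.41%, had an exact permutation p under 0.05, of which 70, 0.569% of all, were lower in DDGS. COL1A1 was 1 of these 70. Against COL1A1 itself the number was 1657, or 13.5%, so a ratio to COL1A1 that differed between the diets was not particular to COL3A1. Against SPARC it was 309 genes, 2.51%, and none of the 3 collagen members was among them. The difference in COL1A1 over COL3A1 had an exact permutation p of 0.0714 without DDGS replicate 2 (adjusted p = 0.27) and of 0.0635 without DDGS replicate 1 or 5 (adjusted p = 0.159 and 0.206). Without SBM replicate 1 the groups no longer overlapped and p was 0.00794 by the exact permutation test (adjusted p = 0.0476).

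Another property of the libraries set apart 5 animals that also had the highest COL1A1 to COL3A1 ratios. A set of 149 genes, without names, varied together across these animals. It was drawn from 458 genes chosen for a high spread, among which COL1A1 was the only member, and COL1A1 did not fall into it. Its summed level was 80.0, 61.1, 46.8, 2187 and 91.2 CPM in DDGS replicates 1 to 5 and 63.1, 665, 2696, 644 and 6547 CPM in SBM replicates 1 to 5. The 5 animals with high sums, SBM replicates 2 to 5 and DDGS replicate 4, were also the 5 with the highest COL1A1 to COL3A1 ratios. Among them DDGS replicate 4 had the lowest ratio, at 0.238. Among the other 5 animals SBM replicate 1, at 0.213, lay inside the DDGS range of 0.120 to 0.223. Each of these subsets holds only 1 animal of a group, so no test within them could be made, and the part of this set in the difference between the diets was not tested. Within each 5 the order by sum was not the order by ratio. SBM replicate 4 had the highest ratio, 0.475, and ranked 5th by sum. DDGS replicate 3 had the lowest sum and ranked 6th by ratio, at 0.223. For COL1A1 over SPARC the split itself did not hold, as DDGS replicate 4 ranked 9th and DDGS replicate 3 ranked 4th. The relation of the set to the COL1A1 to COL3A1 ratio was noticed after the values had been seen.

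**Figure D5:**
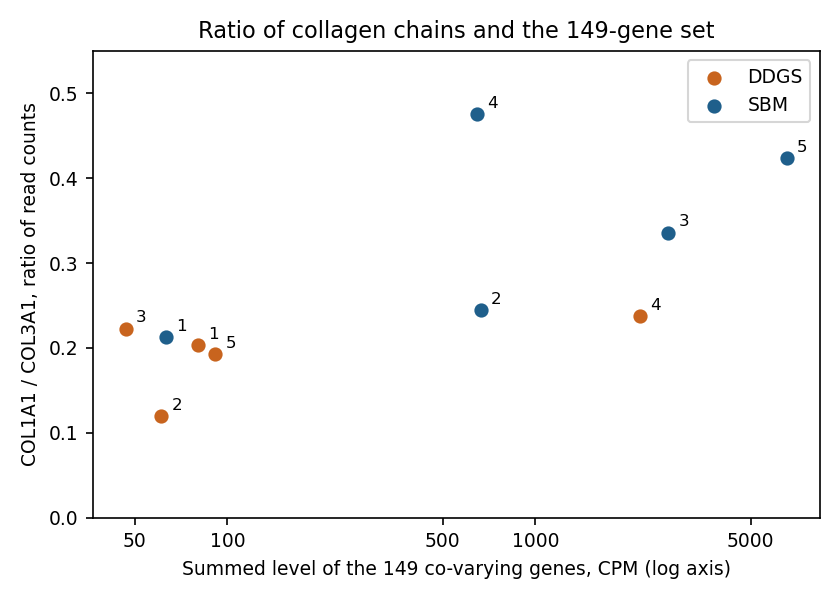
Ratio of COL1A1 to COL3A1 read counts (vertical axis, from 0) against the summed level of 149 co-varying genes (horizontal axis, CPM on library totals, log axis) in the 10 animals, marked with their replicate number. The 5 animals with sums of 644 CPM or more have the 5 highest ratios, and 4 of them are SBM animals. The 5th and 6th ratios, 0.238 in DDGS replicate 4 and 0.223 in DDGS replicate 3, are close.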

How the data were processed

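The authors deposited unscaled read counts, whole numbers for each Ensembl gene identifier in each animal. According to the submitters' processing notes, HTSeq 0.5.3p7, TopHat2 2.0.9, Bowtie2 and FastQC 0.10.1 were used with the UMD3.1 assembly. Annotation release, strand setting and filters are not stated there, so reads of overlapping genes are uncertain. Per the labels' protocols, libraries came from a stranded total RNA kit. The lowest value in the table is 1.

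Counts of all genes were fitted with edgeR 4.0.16 (R 4.3.3): TMM factors, the default expression filter, a robust quasi-likelihood test of the diet group without covariates, and a Benjamini-Hochberg threshold of 0.05. Correlations used log2 CPM with a prior count of 2. Ratios were tested by exact permutation over 252 assignments, and their intervals invert that test. The set of 149 genes came from average-linkage clustering of 458 variable genes at a correlation distance of 0.2. Alternatives were other normalization factors and filters, values of 1 set to 0, the replicate number as a block and leaving out libraries. DESeq2 1.42.0 and limma voom with quality weights per library (limma 3.58.1) were further alternatives. The edgeR fit was tested on simulated counts. The members, lists and tests were chosen with earlier results of these data known. Genes were named as the 4 members and, by likeness of pattern, the first 2 of 10 identifiers, because no symbols could be attached. Of the identifiers, 0 of 16963 matched the reference table, which lists no Ensembl identifiers, so 13 lists of matrix genes and cell type markers were not run. Per-sample columns left unused numbered 0. P-values weigh differences and relations against the spread between these animals.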

Additional observations from a re-analysis of the deposited data

Results flagged for a closer look

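SPARC stood at 179 CPM in DDGS replicate 3, against 431 to 534 CPM in the other 4 DDGS animals. The gap to the nearest of them was 0.711 of the group's range, just past Dixon's 95% critical value of 0.71 for 5 samples. Of 20 groups of 5 values examined (4 levels and 6 ratios in each diet group), this was the 1 past that value, and chance gives about 1 in 20. In the same library COL1A2 and COL3A1 were also at their lowest, and 5078 rows were listed at 1, the most of any library. Their part in the low SPARC value was not tested.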

How the results depend on the processing

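The log2 fold changes of COL1A1, COL1A2 and COL3A1 kept their direction and did not pass the adjusted threshold in any of 20 alternatives each. Leaving out 1 library gave -1.57 to -0.95, -1.42 to -0.71 and -0.56 to -0.18. SPARC had -0.18 to 0.11 in these fits and changed direction in limma voom (0.083) and, as an alternative chosen after seeing the data, without DDGS replicate 3 and SBM replicate 5 together (0.22). The number of genes called was 15 in DESeq2 and 0 to 1 without 1 library, the 1 without DDGS replicate 4. The log2 difference of COL1A1 over COL3A1 was -0.91 to -0.60 without 1 library. It passed the adjusted threshold without SBM replicate 1 alone. Correlations that missed the adjusted threshold were 0.72 for COL1A1 and 0.78 for COL1A2 with COL3A1 without the 2 farthest animals. For COL3A1 with SPARC they were 0.65 by ranks, 0.59 without the 2 farthest animals, 0.55 without DDGS replicate 3 and SBM replicate 5, and 0.64 without DDGS replicate 3 alone. The fits without 1 library gave 0.64 to 0.89, and the other 9 of them passed. On library totals COL1A1 with SPARC had 0.65 and passed (permutation, adjusted p = 0.0441). The cause of these changes was not tested.

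With the replicate number as a block the log2 fold changes were -1.19, -0.94, -0.40 and -0.16 for COL1A1, COL1A2, COL3A1 and SPARC, and 0 genes were called. No source says that equal numbers pair animals, and deviations of same-numbered libraries over 500 genes correlated at -0.14 to 0.25. The block changed no call among the ratios, where 5 pairs cannot go below an exact p of 0.0625.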
